A study of Mus musculus with 2 samples.

Results

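The genes described here encode fibroblast growth factors (FGFs) and their receptors, and were taken by symbol from the authors' deposited table of mouse embryonic fibroblast (MEF) RNA sequencing. The set holds 10 of the 23365 genes of that table, the 5 ligand genes Fgf2, Fgf7, Fgf10, Fgf18 and Fgf21 and the 5 receptor genes Fgfr1, Fgfr2, Fgfr3, Fgfr4 and Fgfrl1, and all 10 were found there. MEFs are mesenchymal cells cultured from embryos. The series has 2 groups with 1 library each, one from MEFs labelled Wild type and one from MEFs labelled TET1/TET2 knocked out, which lack a pair of enzymes that oxidize methylated cytosine in DNA. The title of the series asks how these enzymes bear on developmental genes and on DNA methylation canyons, long stretches of unmethylated DNA. The embryos' age and strain, the number of embryos or cultures and the way the alleles were deleted are not stated by the labels.

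Each value comes from the authors' own comparison between conditions called A and B, whose names match the labels of neither library. Ratios are therefore given as condition B over condition A and are tied to no genotype, and the values of each single condition were not used. The level of a gene is its mean normalized count, the authors' mean over both conditions of its counts after scaling for depth. No ratio has a replicate check, and the p-values, which the authors obtained with DESeq, compare 2 libraries and not the genotypes. A size rule takes the place of a test and asks for a mean normalized count of at least 50 and a log2 ratio at or beyond 1 or -1. In these bulk libraries, fewer cells of a type and less RNA per cell cannot be told apart. The authors' deposited table puts the targeted genes Tet1 and Tet2 at log2 ratios of -1.82 and -0.74 (adjusted p = 0.851 and 1), with 1 value over the whole gene, so these ratios check no deletion. All 10 fibroblast markers were at the minimum mean, with means from 2254 for Pdgfra to 550534 for Fn1. Of 6 epithelial markers 1 was at that mean, Krt18 with a mean of 111 and a log2 ratio of -2.29, and the others, among them Epcam at 4.37, lay from 0.527 to 21.3. Of 3 blood markers, Csf1r and Cd68 had means of 64.1 and 59.6, with log2 ratios of 1.05 and 0.18, and Ptprc a mean of 3.53. The muscle factors Myod1 and Myog were listed at 0, whereas the muscle genes Des and Acta1 had means of 340 and 1094, with log2 ratios of 1.13 and 0.01. The neural markers Nes, Map2 and Tubb3 had means of 16350, 5711 and 3977, with log2 ratios of -0.15, 0.08 and 0.53, and Sox10 had a mean of 31.0. Of 3 markers of pluripotent cells, 0 were at the minimum mean and Nanog was highest at 40.4. The part of these markers in the members' ratios was not tested.

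FGFs are secreted proteins that bind tyrosine kinase receptors together with heparan sulfate chains, and the receptors then signal through the adaptor Frs2 to the Ras and MAP kinase pathway. In embryos, mesenchymal cells send Fgf7 and Fgf10 to epithelia, which carry the IIIb splice form of Fgfr2, while mesenchyme itself mainly uses IIIc forms. Fgf10 starts limb and lung buds, Fgf18 acts on cartilage and bone, Fgf2 is a mitogen widely used in cell culture, and Fgf21 is a hormone of metabolism. Fgfrl1 binds FGFs but has no kinase domain.

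The DNA before the start of a gene is shown for 4 ligands, since the series concerns DNA methylation, which in mammals falls on the cytosine of CpG dinucleotides. Each sequence is the 250 bases before the RefSeq gene start on build GRCm38.p6, 5′ to 3′ on the strand of the gene, with each CpG in capitals. Fgf18 and Fgf2 are shown as the ligands richest in CpG, and Fgf10 and Fgf7 as ligands of the same receptor whose ratios lay on opposite sides of 0.
Fgf18, chr11:33147401-33147650, minus strand: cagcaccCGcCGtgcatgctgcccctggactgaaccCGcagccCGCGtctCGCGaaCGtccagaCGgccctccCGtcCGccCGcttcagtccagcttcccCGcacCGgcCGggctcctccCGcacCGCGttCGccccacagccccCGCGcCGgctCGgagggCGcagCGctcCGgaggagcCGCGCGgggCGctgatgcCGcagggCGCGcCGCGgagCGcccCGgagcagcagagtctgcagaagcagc
Fgf2, chr3:37348403-37348652, plus strand: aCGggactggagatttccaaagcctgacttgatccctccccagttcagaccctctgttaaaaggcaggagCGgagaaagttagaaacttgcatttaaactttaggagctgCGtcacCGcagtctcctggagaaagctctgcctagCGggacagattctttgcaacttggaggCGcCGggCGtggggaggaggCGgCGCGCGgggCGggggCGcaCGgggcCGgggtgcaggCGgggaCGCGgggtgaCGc
Fgf10, chr13:118714449-118714698, plus strand: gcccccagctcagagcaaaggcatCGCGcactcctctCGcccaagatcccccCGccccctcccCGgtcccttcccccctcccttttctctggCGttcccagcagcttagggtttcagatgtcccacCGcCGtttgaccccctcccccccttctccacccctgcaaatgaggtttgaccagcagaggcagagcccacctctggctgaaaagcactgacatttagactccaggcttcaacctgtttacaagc
Fgf7, chr2:126034408-126034657, plus strand: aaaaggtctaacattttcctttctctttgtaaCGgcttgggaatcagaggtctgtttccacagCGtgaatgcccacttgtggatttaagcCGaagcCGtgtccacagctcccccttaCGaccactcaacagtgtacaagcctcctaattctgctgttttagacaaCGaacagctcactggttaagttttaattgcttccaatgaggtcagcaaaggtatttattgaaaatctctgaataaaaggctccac

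The Fgf18 stretch holds 37 CpG, as many as or more than 97.6% of the 19837 windows of genes in the table, and has a GC content of 77.2%. The Fgf2 stretch holds 20 CpG, 16 of them in the 125 bases nearest the gene start. Fgf10 has 8 and Fgf7 has 6, below the median of 10 over all windows, whose quartiles are 3 and 19. The other 5 genes with a window range from 2 CpG at Fgfr2 through 9 at Fgf21, 15 at Fgfr4 and 19 and 24 at the pair of windows of Fgfr3 to 30 at Fgfrl1. For Fgfr2 and Fgfr4, 0 GENCODE M21 transcripts start within 50 bases of the window's gene start, so these counts may not describe a start in use. The letters TATAAA, searched on both strands, occur in 1 of the 10 windows, that of Fgf21, and in 11.2% of all windows. The 3 ligands that met the size rule span 8 to 37 CpG, so they share no single level of CpG content. Methylation itself was not measured in these libraries.

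**Figure D1:**
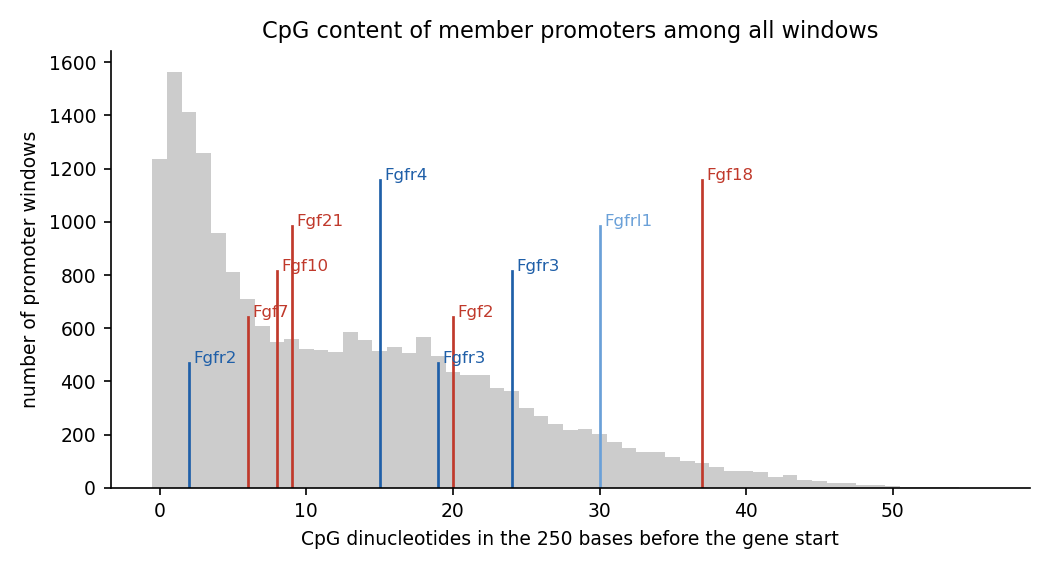
Number of CpG dinucleotides in the 250 bases before the gene start (x axis) against the number of promoter windows (y axis), with all 19837 windows as grey bars and member windows as vertical lines, red for ligands, dark blue for receptors and light blue for Fgfrl1; line heights only separate the names. Fgf18 with 37 and Fgfrl1 with 30 lie in the upper tail, and Fgf7, Fgf10 and Fgf21 with 6 to 9 lie just below the median of 10.

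By the size rule, 3 of the 4 ligands at the minimum mean were higher in condition B and 0 in condition A, whereas of the 4 receptors at that mean 0 met the rule in either direction. With a fold of at least 1.5 in place of 2, the receptor Fgfr1 was also higher in condition B and Fgf7 higher in condition A. At this lower fold, 1727 of all 12401 genes at that mean were higher in condition B and 2160 in condition A. The 2-fold size rule itself gave shares of these 12401 genes of 8.31% toward condition B and 9.6% toward condition A. In either direction, 17.9% met the rule. Of the 8 members at that mean, 3 met it. The median log2 ratio was 1.33 over the 4 ligands and 0.20 over the 4 receptors, beside -0.04 over all genes at that mean, whose quartiles were -0.39 and 0.30. In the authors' deposited table, 2.29% of the 17339 genes with a p-value had a DESeq adjusted p under 0.1, and 0 of the 10 members did. At an unadjusted DESeq p under 0.05 there was 1 member, Fgf10, beside 6.28% of all genes with a p-value, and 9 members had an adjusted p of 1. With so few members, and 1 library per genotype, the difference between ligands and receptors was not tested.

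**Figure D2:**
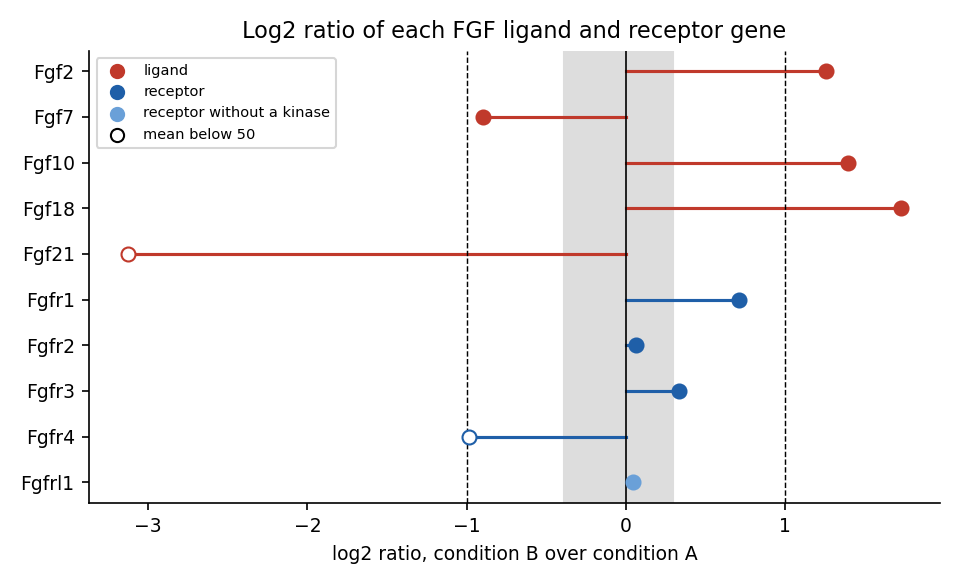
Log2 ratio of condition B over condition A (x axis) for each gene (y axis), with ligands in red, receptors in dark blue and Fgfrl1 in light blue, open circles for genes with a mean below 50, dashed lines at -1 and 1 and a grey band between the quartiles of all genes at the minimum mean. Fgf2, Fgf10 and Fgf18 lie to the right of 1, and the 4 filled receptor points lie between 0.05 and 0.71.

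Fgf10 was the ligand with the smallest p-value. The authors' deposited table lists it at a mean normalized count of 3459 and a fold of 2.63, a log2 ratio of 1.40 (unadjusted p = 0.0318, adjusted p = 0.595). A smaller unadjusted p was listed for 925 genes. Ratios at least as large in size were found for 11.8% of all genes at the minimum mean, and for 5.33% of the 4635 genes whose mean lay within 2-fold of that of Fgf10. The ratio thus lay in the outer part of the spread at its level without passing the authors' test.

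Fgf7, the other mesenchymal ligand of Fgfr2, lay on the opposite side. It was the most abundant of the 5 ligands, with a mean of 8460, and its fold of 0.538 in the authors' deposited table means a level 1.86-fold lower in condition B (log2 ratio -0.89, adjusted p = 1). It did not meet the size rule, and 8.38% of the 3044 genes within 2-fold of its mean had a ratio at least as large in size. The log2 ratio of Fgf10 exceeded that of Fgf7 by 2.29, so the balance of Fgf10 to Fgf7 was 4.90-fold higher in condition B, a value that no common scaling of the libraries can alter. No error can be put on it with 1 library per genotype.

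Fgf18 and Fgf2 were also higher in condition B, at lower levels. Fgf18 had a mean of 133 and was 3.32-fold higher there per the authors' deposited table (log2 ratio 1.73, adjusted p = 1), and 24.3% of the 1407 genes near its mean had a ratio as large or larger in size. Fgf2 had a mean of 219 and a fold of 2.39 (log2 ratio 1.26, adjusted p = 1 in the authors' deposited table), with 31.5% of 1683 genes near its mean at least as far from 0. For both, ratios of this size were common among genes of like abundance. In GENCODE M21 the exons of Fgf2 share 640 bases, 9.44% of their length, with those of Nudt6 on the opposite strand. The authors' deposited table gives Nudt6 a mean of 415 and a log2 ratio of 1.08. The library kit does not mark strand, so reads in the shared stretch cannot be told apart. How much of the mean and ratio of Fgf2 comes from Nudt6 reads is unknown. The 9.44% of shared bases sets no limit on it, since Nudt6 had the higher mean.

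Fgf21 had the lowest level of the 5 ligands, a mean of 35.9, under the minimum. The authors' deposited table puts it 8.74-fold lower in condition B, a log2 ratio of -3.13 with an unadjusted p of 0.230 and an adjusted p of 1. Its co-receptor gene Klb and Kl, which encodes the co-receptor of Fgf23, had means below 10.

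**Figure D3:**
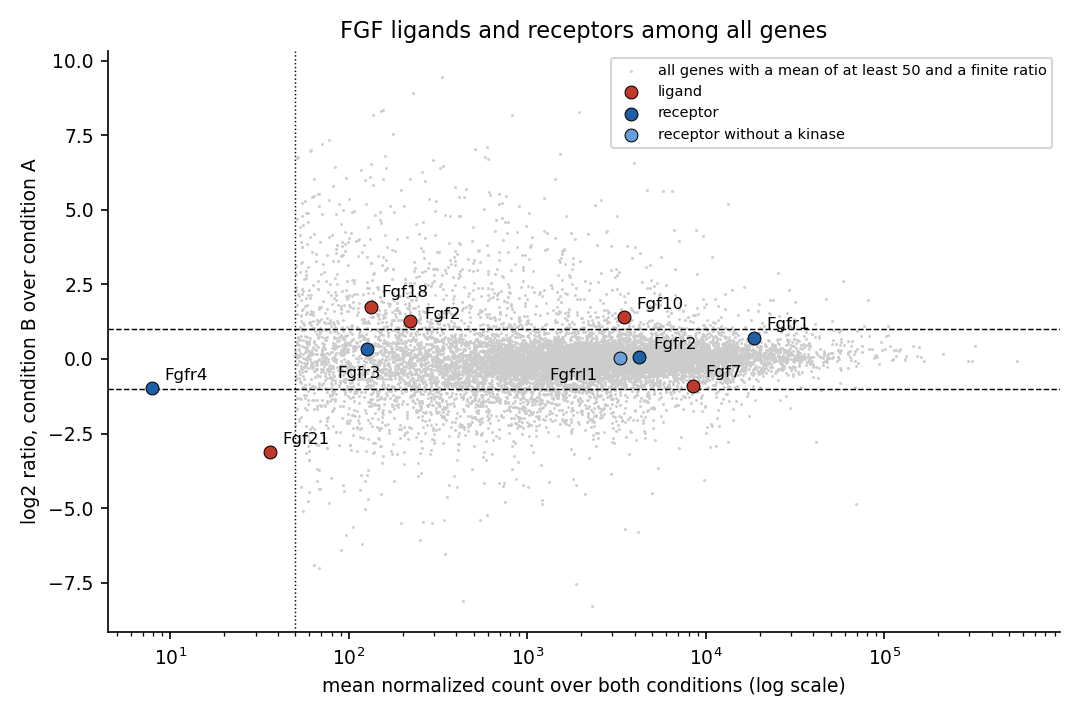
Mean normalized count over both conditions (x axis, log scale) against the log2 ratio of condition B over condition A (y axis) for genes with a mean of at least 50 and a finite ratio (grey), with ligands in red, receptors in dark blue and Fgfrl1 in light blue; dashed lines mark -1 and 1 and the dotted line a mean of 50. Fgf10 and Fgf7 lie at the edges of the grey cloud at their level, Fgf18 and Fgf2 lie where the cloud is wider, and Fgfr2 and Fgfrl1 lie at its centre.

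Fgfr1, the main FGF receptor of mesenchyme, had the highest mean of the 10 genes, 18614, at or above the means of 97.8% of all genes. Its fold in the authors' deposited table was 1.64 (log2 ratio 0.71, adjusted p = 1), short of the size rule, and 13.4% of the 1305 genes near its mean had a ratio at least that large in size. Fgfr2, the receptor of Fgf7 and Fgf10 in its IIIb form, had a mean of 4227 and a log2 ratio of 0.06. In GENCODE M21 the exons of Fgfr2 share 314 bases, 3.04% of their length, with those of Ctbp2 on the same strand. The authors' deposited table gives Ctbp2 a mean of 5171 and a log2 ratio of -0.36. How much of the mean and ratio of Fgfr2 comes from Ctbp2 reads is unknown. With 1 value for a whole gene, IIIb and IIIc forms of Fgfr2 could not be separated. Fgfrl1 had a mean of 3322 and a log2 ratio of 0.05. At least as far from 0 as Fgfr2 and Fgfrl1 were 87.2% and 90.5% of the genes near their respective means. The log2 ratio of Fgfr1 exceeded that of Fgfr2 by 0.65, so the balance of Fgfr1 to Fgfr2 was 1.57-fold higher in condition B. This difference is smaller than the size rule asks of a single gene, and no error can be put on it with 1 library per genotype.

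The other receptors were scarce. Fgfr3, a brake on growth plate cartilage, had a mean of 126 and a fold of 1.26 (log2 ratio 0.34, adjusted p = 1 per the authors' deposited table). At least as far from 0 were 77.0% of the 1384 genes near its mean, so its direction is not read. Cartilage markers lay on the opposite side of 0 from Fgf18, which acts on that tissue. By the size rule all 4 of them were higher in condition A, with log2 ratios of -4.87 for Col2a1, -3.11 for Comp, -3.08 for Acan and -1.67 for Sox9 in the authors' deposited table, and a summed mean of 72990. Their part in the ratios of Fgf18 and Fgfr3 was not tested. Of 10 fibroblast markers, 3 met the rule toward condition B and 0 toward condition A, beside 8.31% and 9.6% of all genes at the minimum mean. The log2 ratios of the 3 were 2.88 for Thy1, 2.54 for Pdgfra and 1.14 for Prrx1. The other 7 did not meet it, at 0.66 for Pdgfrb, 0.44 for Col3a1, 0.27 for Vim, -0.06 for Fn1, -0.07 for Col1a2, -0.08 for Col1a1 and -0.22 for Twist1. The part of these genes in the ligands' ratios was not tested either. Of 4 endothelial markers, Kdr and Tek met the rule toward condition B (log2 ratios 2.78 and 1.21), while the defining markers Pecam1 and Cdh5 had means of only 9.80 and 8.43. In GENCODE M21, 13.9% of the exon bases of Fgfr3 overlap a gene on the opposite strand, G630022F23Rik. Fgfr4, a receptor of liver and muscle precursors, had a mean of 7.85 and a fold of 0.505, and its ratio is not read at so low a level.

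Levels of different genes were set side by side per kilobase (kb) of the longest GENCODE M21 protein-coding transcript. Fgfr1 was highest at a mean normalized count of 3692 per kb, and Fgf7 came next at 3166. Fgfrl1 followed at 1426, Fgfr2 at 980 and Fgf10 at 841 per kb, beside a median of 666 over 11459 genes at the minimum mean. Fgf18 stood at 123 per kb, and Fgf21, Fgf2, Fgfr3 and Fgfr4 at 37.8, 36.7, 29.6 and 2.36. Of the summed level per kb of the 4 kinase receptors, 78.5% came from Fgfr1, 20.8% from Fgfr2, 0.629% from Fgfr3 and 0.0502% from Fgfr4. Of that of the 5 ligands, 75.3% came from Fgf7, 2.91% from Fgf18 and most of the rest from Fgf10. The transcripts over which the authors counted are not stated. With the shortest protein-coding transcript of each gene, a setting added after the data were seen, Fgfr1 was again first, Fgfrl1 came before Fgf7, and Fgf2, at 474 per kb in place of 36.7, and Fgfr3, at 209, came before Fgf18 at 134. The shares of Fgfr1 and Fgfr2 among the kinase receptors were then 95.0% and 4.55%. Those of Fgf7, Fgf10 and Fgf2 among the ligands were 71.3%, 16.2% and 9.14%. The shortest transcripts have 385 bases for Fgfr1, 406 for Fgfrl1, 462 for Fgf2 and 601 for Fgfr3, beside 1827 for Fgfr2 and 2287 for Fgf7. Models this short may be incomplete, so shares and order under this setting show only that the result depends on the transcript chosen. No spread over samples is known, so neighbours in this order, such as Fgfr1 and Fgf7 or Fgf21, Fgf2 and Fgfr3, cannot be ranked with confidence.

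Most of the remaining FGF genes were at or near 0. The table holds 22 genes of the FGF family, 18 of which encode ligands and 4 the intracellular FGF homologous factors, which act on sodium channels and not on FGF receptors. Of the 18 ligand genes, 5 were listed at 0 in both conditions, 4 had a mean above 0 and below 10, 4 had a mean of 10 to 50 and 5 were at the minimum mean. The one ligand at that mean outside the 5 members was Fgf9, with a mean of 54.1 and a fold of 3.96 in the authors' deposited table (adjusted p = 1). Of the 4 ligands with a mean of 10 to 50, Fgf1, Fgf5 and Fgf16, named after their values had been seen, had positive log2 ratios of 2.04, 3.68 and 2.69 there, all with an adjusted p of 1, and the fourth was Fgf21. Among the homologous factors, Fgf13 was at the minimum mean, with a mean of 249.8 and a log2 ratio of 1.20 (adjusted p = 1 in the authors' deposited table).

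The other parts of the pathway were described from lists of 98 entries, 97 of which were in the table. In the list of 24 intracellular transducers, which includes the adaptor genes Frs2 and Grb2, 23 genes were at the minimum mean and 0 met the size rule in either direction. Their median log2 ratio was 0.00, and 0 passed a DESeq adjusted p of 0.1 and 0 an unadjusted p of 0.05 in the authors' table. Over all genes the shares were 17.9% by the size rule, 2.29% at that adjusted p and 6.28% at that unadjusted p. At the last 2 shares, a list this short would hold few such genes. The 17.9% covers every level from the minimum mean up. Apart from Frs3, with a mean of 198, the transducers had means from 1527 for Gab2 to 26114 for Akt1. Near the mean of Fgf7, 8460, 8.38% of genes lay as far from 0 as its -0.89. Near that of Fgf2, 219, 31.5% lay as far out as its 1.26. A share for the transducers' own levels was not computed, so their 0 is not read as unusual. Among the ratios farthest from 0 in that list were those of the kinase gene Braf at -0.72 and the adaptor genes Gab2 at 0.63 and Frs3 at -0.47.

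Feedback inhibitors and target genes of FGF signalling went both ways. Of 20 genes, 5 met the size rule toward condition B and 2 toward condition A. Over all genes at the minimum mean these shares were 8.31% and 9.6%. The median log2 ratio was 0.30, and 3 had an adjusted p under 0.1, all higher in condition B, beside 2.29% of all genes with a p-value. Dusp4, a MAP kinase phosphatase, had a fold of 13.7 at a mean of 3597 per the authors' deposited table (adjusted p = 3.05e-05). Spry1, an inhibitor of receptor tyrosine kinase signalling that FGFs induce, had a mean of 4594 and a fold of 8.48 in the table of the authors' DESeq test (adjusted p = 0.000855). The immediate early gene Fos had a mean of 11233 (adjusted p = 0.0827) and met the size rule toward condition B, and Etv1, an ETS factor, had a log2 ratio of 1.62 (adjusted p = 0.768), both from the authors' deposited table. Further genes were named after their values had been seen. The usual FGF targets Spry4, Dusp6, Spry2, Etv4 and Etv5 lay at 1.42, 0.85, 0.82, -0.19 and -0.21 on the log2 scale. Those that met the size rule toward condition A were Spry3 at -1.48 and Dusp5 at -1.30. Egr1, another immediate early gene, lay at -0.38. Genes of this list also answer to other growth factors, so their ratios do not measure FGF signalling.

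Heparan sulfate proteoglycans and the enzymes that build or trim their chains set how FGFs bind their receptors. Of 25 such genes at the minimum mean, 6 were higher in condition B, 2 were higher in condition A (1 when ratios are centred on their median) and 17 met the rule in neither direction, with a median log2 ratio of 0.13. The authors' deposited table gives 4 of them an adjusted p under 0.1, all higher in condition B. Over all genes the shares were 8.31% toward condition B, 9.6% toward condition A and 2.29% at that adjusted p. The 4 included 3 genes of 3-O-sulfotransferases, which add a rare sulfate to the chain. Hs3st1 had a mean of 266 and a fold of 16.5 (adjusted p = 0.0187), Hs3st3b1 a mean of 695 and a fold of 12.1 (adjusted p = 0.00240) and Hs3st3a1 a mean of 281 and a fold of 9.40 (adjusted p = 0.0889), all from the authors' deposited table. Hs3st3a1 and Hs3st3b1 have closely similar coding sequences, and reads may have been divided between them. The glypican gene Gpc4 had a mean of 23921 and a fold of 3.94 (adjusted p = 0.0827 in the authors' deposited table). The sulfatase genes Sulf1 and Sulf2, whose enzymes remove 6-O-sulfate and which were also named after their values had been seen, lay at -1.37 and 1.02 on the log2 scale (adjusted p = 0.543 and 1, the authors' deposited table).

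Of 7 co-receptor and FGF-binding genes at the minimum mean, 2 met the size rule toward condition B and 1, L1cam, toward condition A, which falls to 0 when ratios are centred on their median. The all-gene shares were again 8.31% and 9.6%. The median log2 ratio was 0.68, and 0 had an adjusted p under 0.1. Unadjusted p-values under 0.05 by DESeq were listed for 2 of them and for 6.28% of all genes with a p-value. Flrt2, a membrane protein that binds FGF receptors, had a mean of 19805 and a log2 ratio of 1.83 (adjusted p = 0.137), and the adhesion gene Ncam1 one of 1.46 (adjusted p = 0.425), per the authors' deposited table. Cdh2, which encodes N-cadherin, and L1cam had log2 ratios of 0.87 and -1.02 in that table.

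**Figure D4:**
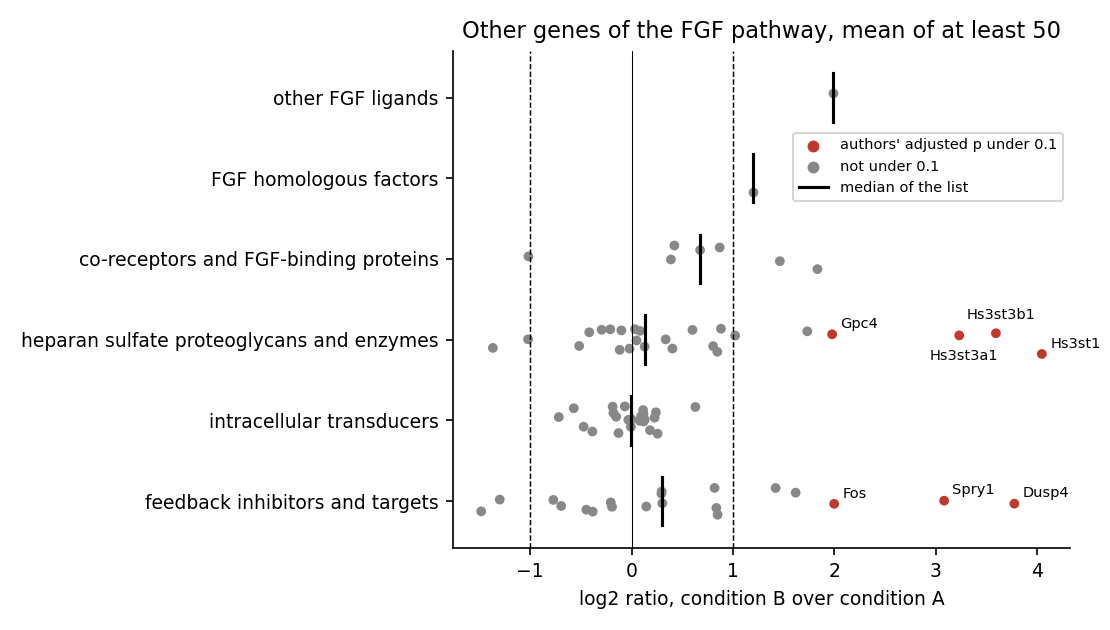
Log2 ratio of condition B over condition A (x axis) for genes with a mean of at least 50 in the 6 lists (y axis, points spread vertically to separate them), with an adjusted p under 0.1 of the authors in red and other genes in grey, black bars at list medians and dashed lines at -1 and 1. The transducers lie between -0.72 and 0.63, and the 7 red points, from Gpc4 and Fos to Hs3st1, lie to the right of 1.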

How the data were processed

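RNA was sequenced from MEFs of 2 genotypes with 1 library each, prepared per the labels' protocols from DNase-treated total RNA by an unstranded TruSeq protocol. TopHat2 2.0, DESeq and build mm9 are named per the submitters' processing notes; the counter, annotation and dispersion settings are not stated there. The signal used as a level is the mean of size-factor-scaled gene counts over conditions A and B, as deposited by the authors. The authors' deposited ratio (fold) is condition B over condition A, and their deposited log2 ratio is its base-2 logarithm with no pseudocount. P-values, raw and adjusted, were deposited by the authors. The 2 columns of single conditions match no label and were not used, so depth per library, counting intervals and errors of single ratios are not given.

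Members and lists were chosen with earlier results of these data known. Every gene was counted by the size rule on the whole table. Named genes are the 10 members, FGF genes at a mean of 50, up to 4 genes of each other list with the largest ratios in size, and Tet1 and Tet2; some genes this rule takes are left out of the text. Marker genes come from separate marker lists. Outside this rule and named after their values were seen are Fgf1, Fgf5, Fgf16, Kl, Klb, Nudt6, Sulf1 and Sulf2. So are Dusp5, Dusp6, Egr1, Etv4, Etv5, Spry2, Spry3 and Spry4. CpG, exon overlap and length came from RefSeq GRCm38.p6 windows, which matched 9 of the 10 members by symbol, and from GENCODE M21. Since the authors' build is mm9, this one served for sequence and annotation only. The planned comparison of proteins was not made. Alternatives were other centrings, minimum means, size thresholds, an adjusted p under 0.05 and, added after the data were seen, the shortest transcript for levels per kb. Python 3.11.15 and pandas 2.3.3 were used.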

Additional observations from a re-analysis of the deposited data

How the results depend on the processing

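Centring the log2 ratios on their median (-0.04) or on a trimmed mean (-0.04) changed the sign of 0 of the 10 members' ratios and left 3 members higher in condition B. With a log2 ratio of at least 2 required, 0 members were higher in condition B. Higher in condition A was 1 member in place of 0 with a minimum mean of 10 or none (Fgf21), and 1 with a fold of at least 1.5 (Fgf7). Higher in condition B were 4 in place of 3 members with a fold of at least 1.5, which adds the receptor Fgfr1, and 2 with a minimum mean of 200, which leaves out Fgf18. Over all genes, those higher in condition B numbered 3161 with no minimum mean, 476 with a log2 ratio of at least 2 and 1727 with a fold of at least 1.5, and those higher in condition A 2336, 366 and 2160. An adjusted p under 0.05 was listed for 301 genes in place of 397. Both centrings took L1cam and Sdc4 below the size rule. With 1 library per genotype no library could be left out. No paired analysis was possible because each genotype has 1 library. Without the counts of each library, the precision of the ratios is unknown, and it is lowest for Fgf21 and Fgfr4.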
